A study of Mus musculus with 4 samples.

Results

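The kinesin family was examined in RNA-seq of mouse telencephalon, the region of the embryo's forebrain from which the cerebral cortex and the basal ganglia arise. Members were all genes of the deposited expression table whose symbol is Kif or Kifc followed by a number and optional letters. This rule found 42 of 30637 genes and used no measured value. Of these, 40 encode kinesins, while Kif1bp encodes a kinesin-binding protein and Kif16bos is a transcript from the strand opposite a kinesin gene. The 4 libraries came from C57BL/6 embryos at embryonic day 13. They comprised 2 conditional knockouts of Pd1 (Pd1CKO 2 and Pd1CKO 1) and 2 controls (control 2 and control 1), where the controls are called wild type by the titles and Pd1fl/fl (the floxed allele, undeleted) by the design text. Which Cre line or promoter drives the deletion, and whether embryos were pooled, is not stated. The study was directed at the role of Pd1 in proliferation and differentiation of neural progenitors.

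Kinesins are motor proteins that use ATP to move along microtubules or to take them apart. Dividing cells use one set of them to build the spindle, move chromosomes and complete cytokinesis, and the genes of that set are transcribed mainly late in the cell cycle. Neurons, which no longer divide, use another set to carry vesicles, organelles and cytoskeletal proteins along axons and dendrites. In the embryonic telencephalon the progenitors lie along the ventricle and the neurons above them, so a piece of tissue holds both sets. In bulk tissue, fewer cells of a type and less RNA per cell cannot be told apart.

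Many genes of the mitotic set carry a short element near their transcript start, the cell cycle gene homology region, which is bound by the DREAM and MuvB complexes and often lies next to a CCAAT box bound by NF-Y. The core of this element, TTTGAA, is shown for the 9 mitotic kinesins in which it began within 30 bases of the RefSeq transcript start, because all mitotic kinesins were lower in both libraries with the replicate number 2 than in both with number 1. Each window is 30 bases of the gene's strand from RefSeq (GRCm38.p6), written 5′ to 3′, with the element in capitals. The element reads TTCAAA where it lies on the other strand, and where 2 matches were near the start the first is shown.
Kif11 (chr19:37376351-37376380, plus strand): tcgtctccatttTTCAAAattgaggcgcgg
Kif15 (chr9:122951050-122951079, plus strand): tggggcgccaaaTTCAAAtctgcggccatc
Kif18b (chr11:102925104-102925133, minus strand): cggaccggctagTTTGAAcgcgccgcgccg
Kif20b (chr19:34922353-34922382, plus strand): gagccgccattgTTTGAAtttgaaaaccgg
Kif22 (chr7:127042420-127042449, minus strand): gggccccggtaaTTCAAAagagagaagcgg
Kif23 (chr9:61946780-61946809, minus strand): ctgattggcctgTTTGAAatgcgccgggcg
Kif4 (chrX:100626072-100626101, plus strand): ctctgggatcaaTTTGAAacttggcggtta
Kifc1 (chr17:33890615-33890644, minus strand): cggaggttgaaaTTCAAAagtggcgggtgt
Kifc5b (chr17:26917108-26917137, plus strand): cggaggttgaaaTTCAAAagtgactggtgt

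The 250 bases before the transcript start are shown for 1 mitotic and 1 neuronal marker of the family, Kif11 and Kif1a, to set the 2 kinds of promoter side by side. Capitals mark the TTTGAA and CCAAT matches on either strand. Kif11 holds a CCAAT match, read as ATTGG, ahead of its TTTGAA match, and the Kif1a stretch holds neither. GC content was 62.0% in the Kif11 stretch and 69.2% in the Kif1a stretch.
Kif11 (chr19:37376132-37376381, plus strand): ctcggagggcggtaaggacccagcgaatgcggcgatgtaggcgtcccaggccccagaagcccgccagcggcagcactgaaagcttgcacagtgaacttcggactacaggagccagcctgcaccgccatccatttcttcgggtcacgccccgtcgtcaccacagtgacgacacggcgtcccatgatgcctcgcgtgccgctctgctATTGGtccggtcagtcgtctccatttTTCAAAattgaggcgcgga
Kif1a (chr1:93101875-93102124, minus strand): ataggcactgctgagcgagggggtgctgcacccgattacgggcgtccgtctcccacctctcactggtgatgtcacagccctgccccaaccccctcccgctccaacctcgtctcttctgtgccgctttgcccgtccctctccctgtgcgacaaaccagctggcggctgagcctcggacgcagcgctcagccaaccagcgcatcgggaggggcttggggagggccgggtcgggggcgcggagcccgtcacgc

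Expression was given as FPKM, fragments per kilobase of exon scaled by library depth, and the values implied 16192000 to 18728000 fragments per library. The libraries stood apart by the number in their titles, which the labels do not explain. The first principal component held 81.6% of the variance and separated number 2 from number 1, and Pearson correlations were 0.978 to 0.987 within a number and 0.912 to 0.916 between numbers. Pdcd1, the gene read as the target, had 13 fragments in control 2 and 0 in the other 3 libraries, so it could not serve to check the genotypes. The 4 Y-linked genes examined were at 2.04 to 19.2 FPKM in Pd1CKO 2 and at no more than 0.0148 FPKM elsewhere, so Pd1CKO 2 and control 2 differed in Y-linked expression as well as in genotype. Summed telencephalon markers were at 315 FPKM in Pd1CKO 2 and 467 in Pd1CKO 1, against 302 in control 2 and 452 in control 1, and all 8 were above the filter on low values. The samples are not stated to come from separate litters, so p-values measure the spread between these libraries only.

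Of the 42 family members, 34 reached a mean of 1 FPKM, the filter for testing, 33 of them kinesins. Every one of the 13 mitotic kinesins passed, as did 8 of 9 neuronal kinesins, 4 of 8 kinesins of cilia and axonemes, 6 of 8 broadly expressed transport kinesins and both atypical kinesins of the kinesin-11 class. The highest levels belonged to neuronal motors, with means over the 4 libraries of 66.3 FPKM for Kif5c, 63.9 for Kif21b and 58.7 for Kif1a. Kif11, the highest mitotic kinesin, averaged 22.8 FPKM. The lowest mitotic kinesin was Kif14 at 1.75 FPKM, while the neuronal kinesins ended at 9.51 FPKM for Kifc2 above the filter and 0.498 FPKM for Kif17 below it. The family genes were long, with a median exon length of 6973.5 bases among the 34 members above the filter, against 4013.5 bases over all genes tested.

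**Figure D1:**
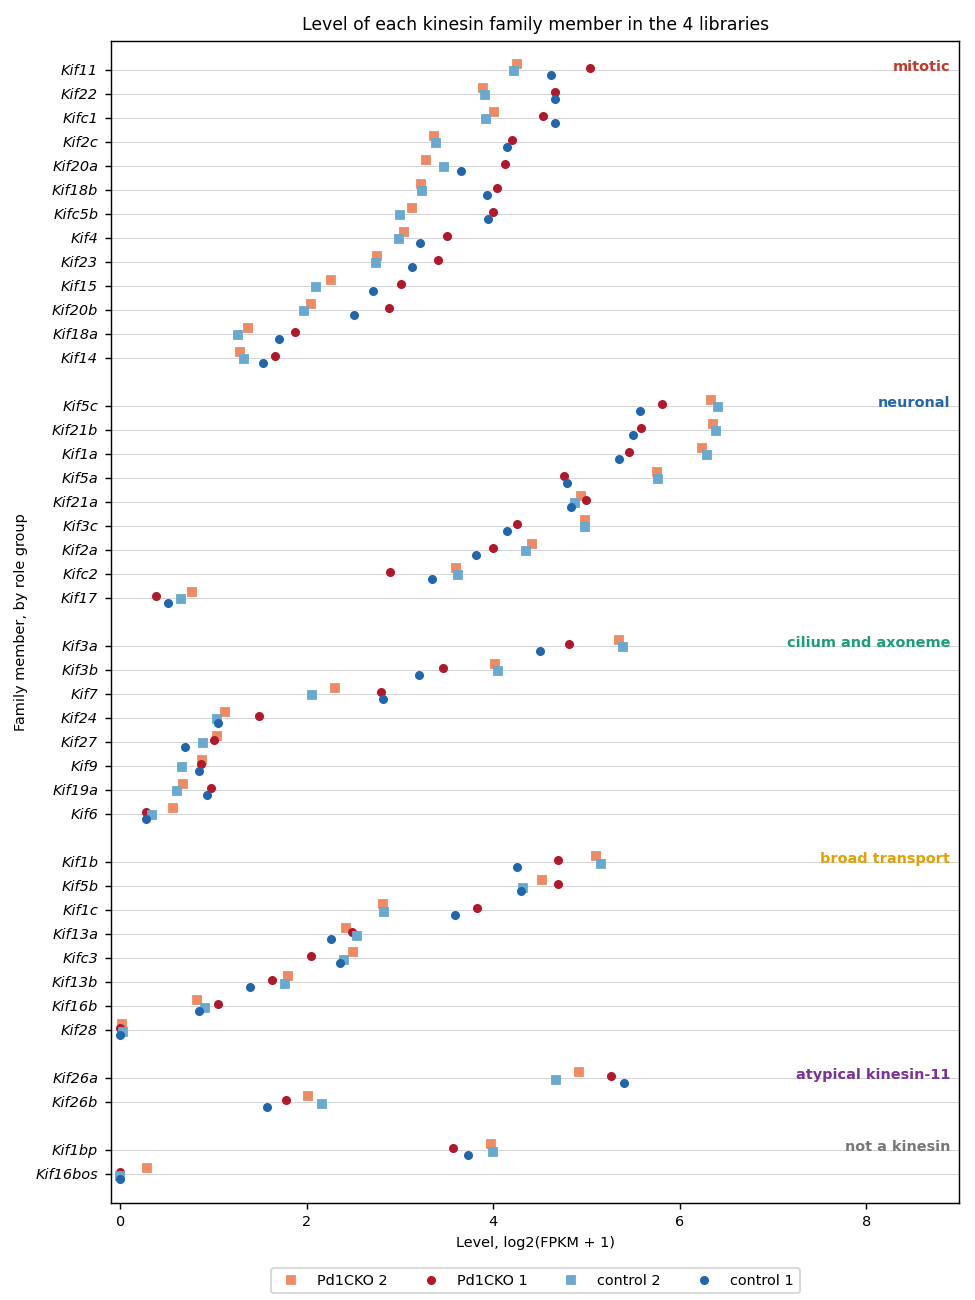
Level of all 42 family members on the log2(FPKM + 1) scale in Pd1CKO 2, Pd1CKO 1, control 2 and control 1, grouped by role and ordered by mean within each group. Squares (number 2) lie left of circles (number 1) for every mitotic kinesin and right of them for most neuronal kinesins, while the colours of the 2 genotypes interleave.

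The comparison of Pd1CKO with control asked which kinesin transcripts differed with loss of Pd1. No kinesin passed an adjusted p of 0.05 in limma on log2(FPKM + 1), and no kinesin had an unadjusted p under 0.05 either. Over all 13927 genes tested the same fit called 0 genes (0.0%), and 47 genes (0.337%) had an unadjusted p under 0.05. With limma-voom on recovered fragments these counts were 0 and 57. Values of both Pd1CKO libraries lay above both controls for 3 of the 34 members above the filter, Kif5b, Kif21a and Kif24, where 8.37% of all genes did so, and values lay below both controls for 0 members, where 6.14% of all genes did.

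Kif5b, the ubiquitous heavy chain of conventional kinesin, had the smallest unadjusted p of the family. It was at 22.0 FPKM in Pd1CKO 2 and 24.8 in Pd1CKO 1, against 18.9 in control 2 and 18.7 in control 1. Both knockouts lay above both controls, with means of 23.4 ± 1.96 FPKM in Pd1CKO and 18.8 ± 0.179 FPKM in control (SD, n = 2 each). The log2 difference was 0.30 ± 0.19 (SE), which did not pass (limma, unadjusted p = 0.176, adjusted p = 0.9998). With trends on length and GC content removed from each library, this difference was 0.17 ± 0.21 (SE, limma, unadjusted p = 0.458). In fragments, Kif5b was 1.16-fold of control in number 2 (95% interval 1.10 to 1.23) and 1.33-fold in number 1 (1.26 to 1.40), intervals that cover counting error only. Kif5c and Kif5a, the neuronal heavy chains of the same motor, did not share this pattern, with 0.947-fold and 0.991-fold of control in number 2 and 1.17-fold and 0.981-fold in number 1. With the trends removed, the log2 differences in number 2 were 0.16 for Kif5b, -0.061 for Kif5c and -0.0045 for Kif5a. In number 1 they were 0.18, 0.13 and -0.074.

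Kif21a, a neuronal kinesin-4 that restrains microtubule growth, also had non-overlapping groups, at 29.7 FPKM in Pd1CKO 2 and 31.0 in Pd1CKO 1, against 28.4 in control 2 and 27.6 in control 1. Its log2 difference was 0.11 ± 0.18 (SE). Kif24, which restrains the start of cilium growth in cycling cells, was at 1.18 FPKM in Pd1CKO 2 and 1.80 in Pd1CKO 1, against 1.05 in control 2 and 1.06 in control 1. Only Pd1CKO 1 stood clear of the other libraries here, and the log2 difference was 0.27 ± 0.25 (SE). Kif24 holds repeats shared with many other transcripts, so its count is uncertain. Neither gene passed the test. Below the filter, Kif27 and Kif9 also had both knockouts above both controls. Kif27 had 100 and 99 fragments in Pd1CKO 2 and Pd1CKO 1, against 72 and 60 in control 2 and control 1. Kif9 had 65 and 66 fragments, against 41 and 64. For Kif9, Pd1CKO over control was 1.42-fold in number 2 (interval for counting error 0.945 to 2.15) and 1.02-fold in number 1 (0.714 to 1.47). For Kif27 it was 1.24-fold in number 2 (0.909 to 1.71) and 1.64-fold in number 1 (1.18 to 2.29). Only the interval of Kif27 in number 1 excluded 1. The share of all genes below the filter with this order was not determined.

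Across the family, Pd1CKO minus control was more often positive in number 1 than in number 2. In number 2, 16 of 34 members were higher in Pd1CKO, where 50.0% of all genes were, and the median log2 difference was -0.0046, against 0.000085 over all genes. In number 1, 26 of 34 members were higher in Pd1CKO, where 54.7% of all genes were, and the median was 0.18, against 0.034 over all genes. Both numbers together placed 12 of 34 members higher in each pair, where 28.2% of all genes were, and 4 lower in each pair, where 23.5% were. The mitotic kinesins had a median log2 difference of 0.028 in number 2, with 8 of 13 higher, and of 0.17 in number 1, with 11 of 13 higher. The neuronal kinesins had -0.019 in number 2, with 2 of 8 higher, and 0.10 in number 1, with 6 of 8 higher. No test of the difference between the 2 numbers was possible with 1 library of each genotype per number.

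Base composition moved with the differences of number 1. Over the 34 members, the log2 difference of Pd1CKO from control in number 1 had a Spearman correlation of -0.70 with GC content and 0.39 with exon length, against -0.34 and 0.30 over 13908 genes, and the points share the same 2 libraries. In number 2 the values for the family were -0.086 with GC content and -0.11 with exon length. With trends on length and GC content removed from each library, the median of the family in number 1 was 0.065 with 23 of 34 members higher, that of the mitotic kinesins 0.091 with 10 of 13 higher, and that of the neuronal kinesins -0.00098 with 4 of 8 higher. The part of base composition in the differences of single kinesins was not tested.

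**Figure D2:**
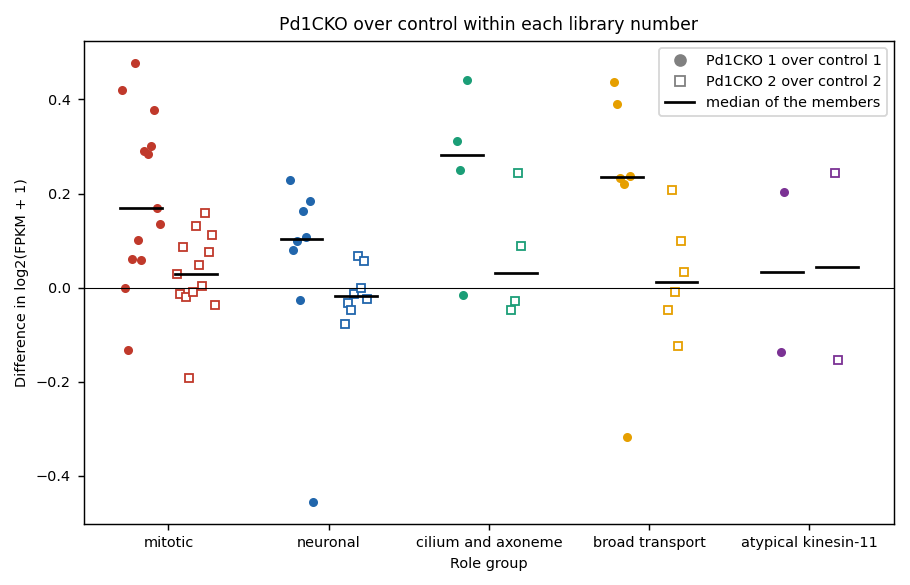
Difference in log2(FPKM + 1) of Pd1CKO over control for each family kinesin above the filter, by role group, in number 1 (filled circles) and number 2 (open squares), with the median of each set as a bar. The number 2 values lie close to 0 in most groups, while the number 1 values spread from -0.45 for Kifc2 to 0.48 for Kif20a, and no kinesin passed the test.

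Library number gave the larger contrast within the family. The fit of number 2 against number 1 called 22 of 34 members at an adjusted p under 0.05 (limma), 9 higher and 13 lower in number 2, where 35.0% of all genes were called, 16.5% higher and 18.5% lower. The split followed the roles of the motors. Mitotic kinesins were called 10 lower and 0 higher of 13, with a median log2 difference of -0.63, and neuronal kinesins 6 higher and 0 lower of 8, with a median of 0.73, against 0.032 over all genes. All 13 mitotic kinesins had both libraries of number 2 below both of number 1, where 34.1% of all genes did, and 7 of 8 neuronal kinesins had both above, where 38.5% did. Without control 2, 13 members were called, 4 of them mitotic and 5 neuronal, and without a filter on low values 12 were called. Without the filter, 2976 of all 30637 genes were called. The 10 that lost the call without the filter were Kif11, Kif15, Kif18a, Kif20b, Kif23, Kif2a, Kif3a, Kif1b, Kif7 and Kif26a (adjusted p between 0.0506 and 0.131). All of these except Kif3a and Kif1b, and also Kifc1, lost the call without control 2, and Kif11, Kif18a, Kif23 and Kif2a also without Pd1CKO 2 and Kif18a without Pd1CKO 1 (adjusted p between 0.0509 and 0.299). With trends on length and GC content removed, the 13 mitotic kinesins were all called lower and 7 of 8 neuronal kinesins higher. Of all 13908 genes in that fit, 2589 were called lower and 2537 higher. Kif26a, Kif7 and Kif1b were no longer called there. What the number stands for is not known, so this contrast describes how the libraries differ, not an effect of a treatment.

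Among spindle motors, Kif11 is Eg5, the motor that slides antiparallel microtubules apart to separate the spindle poles. Kif11 was at 18.1 FPKM in Pd1CKO 2 and 32.0 in Pd1CKO 1, against 17.7 in control 2 and 23.6 in control 1. Both libraries of number 2 lay below both of number 1, and Pd1CKO 1 was the highest. The log2 difference of number 2 over number 1 was -0.59 ± 0.15 (SE, limma adjusted p = 0.0331), or -0.50 under quantile normalization (adjusted p = 0.0675), and that of Pd1CKO over control was 0.22 ± 0.35 (SE), with means of 25.0 ± 9.84 FPKM in Pd1CKO and 20.7 ± 4.21 FPKM in control (SD, n = 2 each). Kifc1 is a minus-end motor that focuses spindle poles. It had 15.1 FPKM in Pd1CKO 2 and 22.1 in Pd1CKO 1, against 14.2 in control 2 and 24.4 in control 1, a difference of -0.63 between numbers (adjusted p = 0.00733). Kif15, which can share the work of Kif11, had a log2 difference of -0.69 (adjusted p = 0.0189).

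Chromosome motors likewise had both libraries of number 2 below both of number 1. Kif22 is Kid, which pushes chromosome arms toward the spindle equator, and it was at 13.9 FPKM in Pd1CKO 2 and 24.4 in Pd1CKO 1, against 14.0 in control 2 and 24.4 in control 1. Pd1CKO minus control was -0.014 in number 2 and -0.0015 in number 1 on the log2 scale, while the numbers differed by -0.76 ± 0.08 (SE, adjusted p = 0.00304). Kif2c is MCAK, which takes apart microtubules at kinetochores. It was at 9.33 FPKM in Pd1CKO 2 and 17.4 in Pd1CKO 1, against 9.48 in control 2 and 16.7 in control 1, a difference of -0.79 (adjusted p = 0.00322). Kif4, a chromokinesin of the X chromosome, was at 7.23 FPKM in Pd1CKO 2 and 10.4 in Pd1CKO 1, against 6.96 in control 2 and 8.29 in control 1. Its difference of -0.34 between numbers did not pass (adjusted p = 0.0903), and its difference between Pd1CKO and control was 0.17 ± 0.25 (SE). Kif18a and Kif18b, which limit microtubule length at the spindle, differed by -0.47 and -0.75 (adjusted p = 0.0487 and 0.00412), where Kif18a did not pass with a pseudocount of 0.1 (adjusted p = 0.0504).

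The cytokinesis motor Kif23 is MKLP1, a subunit of the centralspindlin complex that acts at the midzone and midbody. Kif23 was at 5.73 FPKM in Pd1CKO 2 and 9.63 in Pd1CKO 1, against 5.72 in control 2 and 7.73 in control 1. The 2 libraries of number 2 were almost equal, and those of number 1 lay above them and apart from each other. The log2 difference between numbers was -0.52 ± 0.13 (SE, adjusted p = 0.0294). Between Pd1CKO and control it was 0.14 ± 0.31 (SE), with means of 7.68 ± 2.76 FPKM in Pd1CKO and 6.73 ± 1.42 FPKM in control (SD, n = 2 each). Kif20b, needed for abscission in cortical progenitors of the mouse, was lower in number 2 as well, with a log2 difference of -0.68 (adjusted p = 0.0238). Besides Kif4, the mitotic kinesins that did not pass were Kif20a (adjusted p = 0.0756), which brings the chromosomal passenger complex to the midzone, and Kif14 (adjusted p = 0.153), a motor of the midbody. Of the mitotic kinesins, Kif20a had the widest gap on the log2 scale between libraries of 1 number, at 16.5 FPKM in Pd1CKO 1 and 11.6 in control 1, a log2 difference of 0.48.

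Neuronal kinesins were ordered the other way. Kif1a carries synaptic vesicle precursors and dense core vesicles along the axon, and it was at 74.8 FPKM in Pd1CKO 2 and 42.8 in Pd1CKO 1, against 77.4 in control 2 and 39.8 in control 1. Both libraries of number 2 lay above both of number 1, by 0.87 ± 0.09 on the log2 scale (SE, adjusted p = 0.00242). Means were 58.8 ± 22.7 FPKM in Pd1CKO and 58.6 ± 26.6 FPKM in control (SD, n = 2 each), and the log2 difference between genotypes was 0.026 ± 0.45 (SE). Kif5c, a neuron-enriched heavy chain of conventional kinesin, was at 79.5 FPKM in Pd1CKO 2 and 55.0 in Pd1CKO 1, against 84.0 in control 2 and 46.8 in control 1. Its difference between numbers was 0.68 ± 0.11 (SE, adjusted p = 0.00852). Between genotypes it was 0.075 ± 0.38 (SE), with means of 67.2 ± 17.4 FPKM in Pd1CKO and 65.4 ± 26.3 FPKM in control (SD, n = 2 each).

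Kif21b, a kinesin-4 of dendrites and axons, was at 81.0 FPKM in Pd1CKO 2 and 47.0 in Pd1CKO 1, against 83.0 in control 2 and 44.4 in control 1, a difference of 0.83 between numbers (adjusted p = 0.00252). Kif5a, the heavy chain most restricted to neurons, was at 53.1 FPKM in Pd1CKO 2 and 26.1 in Pd1CKO 1, against 53.6 in control 2 and 26.6 in control 1. At 0.99 ± 0.08 (SE, adjusted p = 0.00149) it had the largest difference of the family between numbers, and its libraries of one number were nearly equal. Kif3c, the neuronal partner of Kif3a, and Kif2a, which trims microtubules in growing axons, were higher in number 2 by 0.79 and 0.47 (adjusted p = 0.00322 and 0.0204).

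The 2 neuronal kinesins that did not pass by number were Kif21a and Kifc2. Kif21a, given above, differed by -0.011 ± 0.096 (SE, adjusted p = 0.942), although its relative Kif21b was among the largest. Kifc2, a minus-end motor of the nervous system, was at 11.1 FPKM in Pd1CKO 2 and 6.43 in Pd1CKO 1, against 11.3 in control 2 and 9.19 in control 1. Pd1CKO 1 stood below the other 3 libraries, at 0.700-fold of control 1 in fragments (95% interval 0.621 to 0.789), while Pd1CKO 2 was at 0.982-fold of control 2 (0.886 to 1.09). Between genotypes the log2 difference was -0.24 ± 0.31 (SE).

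**Figure D3:**
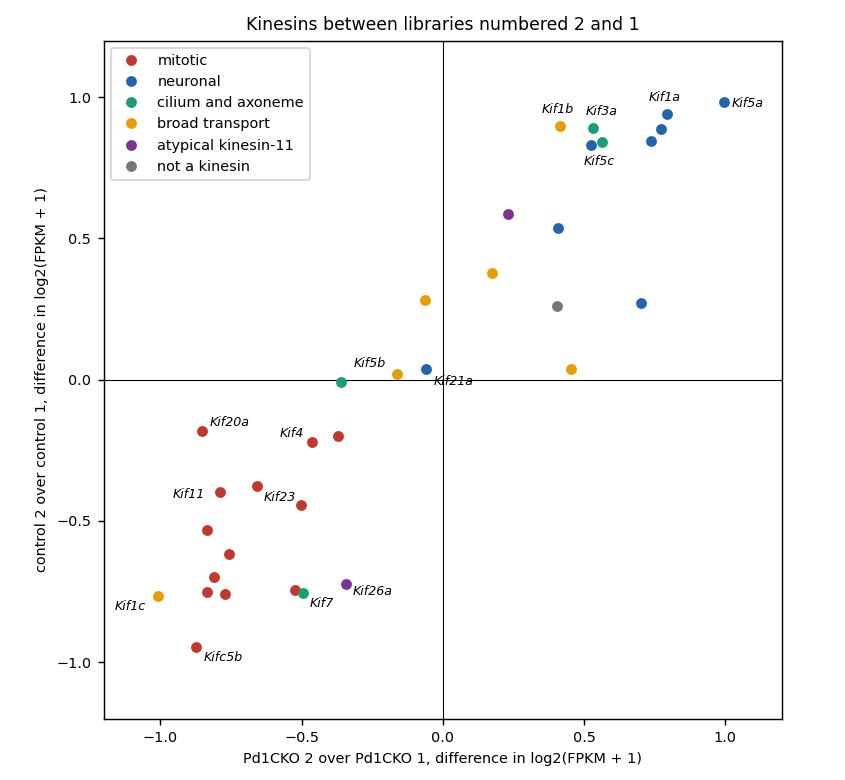
Difference in log2(FPKM + 1) of number 2 over number 1 for each family member above the filter, in Pd1CKO on the horizontal axis and in control on the vertical axis, coloured by role. Mitotic kinesins occupy the lower left quadrant and neuronal kinesins, apart from Kif21a, the upper right one, with Kif5a at the far upper right and Kif1c among the mitotic kinesins.

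Kinesins of cilia split by class. Kif3a and Kif3b form the heterotrimeric kinesin-2 that carries cargo into the cilium and along axons. Kif3a was at 39.7 FPKM in Pd1CKO 2 and 27.1 in Pd1CKO 1, against 41.1 in control 2 and 21.7 in control 1, and its difference between numbers was 0.71 ± 0.12 (SE, adjusted p = 0.0114, or 0.0506 without the filter on low values). Between genotypes it was 0.13 ± 0.39 (SE). Kif3b, at 15.2 FPKM in Pd1CKO 2 and 9.98 in Pd1CKO 1, against 15.6 in control 2 and 8.24 in control 1, was higher in number 2 by 0.70 (adjusted p = 0.00924). Kif7, the kinesin of Hedgehog signalling at the ciliary tip, went the other way. It was at 3.93 FPKM in Pd1CKO 2 and 5.95 in Pd1CKO 1, against 3.17 in control 2 and 6.03 in control 1, a difference of -0.63 (adjusted p = 0.0163) that was -0.33 with length and GC trends removed (adjusted p = 0.0804). The 4 members of this list below the filter, Kif27, Kif9, Kif19a and Kif6, were at no more than 1.06 FPKM in every library.

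Broadly expressed transport kinesins had no common direction. Kif1b, which carries mitochondria and vesicle precursors, was at 33.5 FPKM in Pd1CKO 2 and 24.9 in Pd1CKO 1, against 34.6 in control 2 and 18.1 in control 1, and was higher in number 2 by 0.66 ± 0.16 (SE, adjusted p = 0.0270), or 0.27 with length and GC trends removed (adjusted p = 0.0550). Kif1c, a vesicle motor of many tissues, was at 6.07 FPKM in Pd1CKO 2 and 13.2 in Pd1CKO 1, against 6.11 in control 2 and 11.1 in control 1. Its difference of -0.89 ± 0.11 (SE, adjusted p = 0.00476) was of the size seen for the mitotic kinesins, although it has no part in the list of mitotic motors. Kif13a, a motor of endosomes, was at 4.35 FPKM in Pd1CKO 2 and 4.59 in Pd1CKO 1, against 4.84 in control 2 and 3.80 in control 1, with no order by number or genotype. Kif13b had 2.49 FPKM in Pd1CKO 2 and 2.10 in Pd1CKO 1, against 2.41 in control 2 and 1.63 in control 1, and a genotype difference of 0.14 ± 0.24 (SE). Kif5b, Kif13a, Kif13b and Kifc3 did not pass by number. Kif28 was listed at 0 in both libraries of number 1 and at 1 fragment in each of number 2.

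The kinesin-11 pair diverged from each other. Kif26a, a kinesin without motor activity that limits growth factor signalling in enteric neurons of the mouse, was at 29.3 FPKM in Pd1CKO 2 and 37.4 in Pd1CKO 1, against 24.6 in control 2 and 41.3 in control 1, and its difference between numbers was -0.53 ± 0.12 (SE, adjusted p = 0.0211), or -0.11 with length and GC trends removed (adjusted p = 0.378). Kif26b was at 3.03 FPKM in Pd1CKO 2 and 2.44 in Pd1CKO 1, against 3.49 in control 2 and 1.99 in control 1, and its difference of 0.41 ± 0.14 (SE) did not pass (adjusted p = 0.0709). Between genotypes Kif26a differed by 0.053 ± 0.32 and Kif26b by 0.025 ± 0.29 (SE). Of the 2 members that are no kinesins, Kif1bp was at 14.7 FPKM in Pd1CKO 2 and 10.9 in Pd1CKO 1, against 14.9 in control 2 and 12.3 in control 1, just short of the threshold by number (adjusted p = 0.0516). Kif16bos had 2 fragments in Pd1CKO 2 and 0 elsewhere.

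Summed by role, the balance of mitotic to neuronal kinesin RNA separated the libraries by number. The mitotic kinesins summed to 104 FPKM in Pd1CKO 2 and 181 in Pd1CKO 1, against 103 in control 2 and 160 in control 1. The neuronal kinesins summed to 381 FPKM in Pd1CKO 2 and 242 in Pd1CKO 1, against 388 in control 2 and 225 in control 1. Mitotic kinesins thus made up 15.9% of all kinesin FPKM in Pd1CKO 2 and 31.0% in Pd1CKO 1, against 15.7% in control 2 and 30.4% in control 1. The ratio of mitotic to neuronal sums was 0.273 in Pd1CKO 2 and 0.749 in Pd1CKO 1, against 0.264 in control 2 and 0.711 in control 1, so that within a number the genotypes were close and between numbers they were not. By an exact two-sided permutation test over the 4 libraries, both sums gave p = 0.333 for number, the smallest p that 2 against 2 allows, and for genotype 0.667 (mitotic) and 1 (neuronal).

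The total of all kinesins varied less than its parts. It was 654 FPKM in Pd1CKO 2 and 584 in Pd1CKO 1, against 654 in control 2 and 525 in control 1. Broadly expressed transport kinesins summed to 73.8 FPKM in Pd1CKO 2 and 73.8 in Pd1CKO 1, against 72.1 in control 2 and 58.2 in control 1, with both knockouts above both controls (exact p = 0.333). Of its 6 members above the filter, only 1, Kif5b, had this order by itself, where 8.37% of all genes did. Higher in Pd1CKO within each number were 2 of the 6, where 28.2% of all genes were. The kinesins of cilia summed to 63.0 FPKM in Pd1CKO 2 and 47.9 in Pd1CKO 1, against 63.1 in control 2 and 39.6 in control 1, most of it Kif3a and Kif3b.

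**Figure D4:**
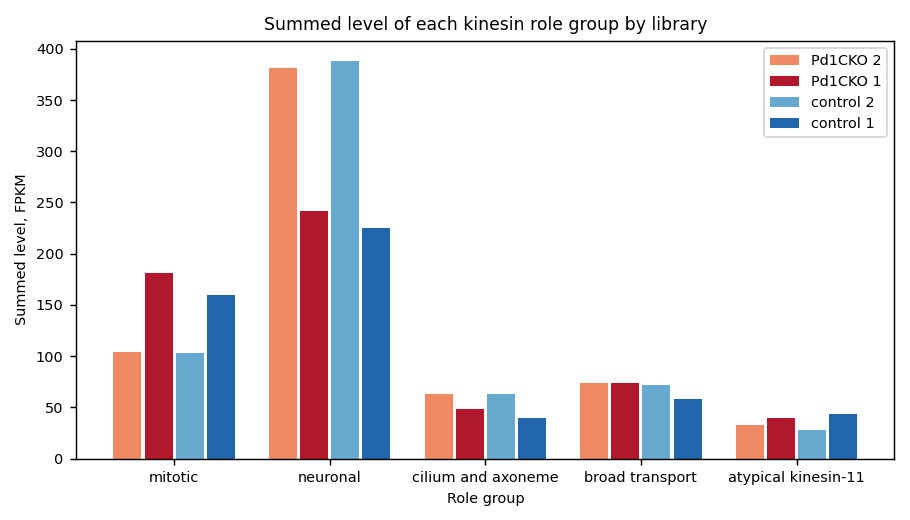
Summed FPKM of each kinesin role group in Pd1CKO 2, Pd1CKO 1, control 2 and control 1, 1 bar per library with no error bar. Mitotic sums are 103 to 104 FPKM in number 2 and 160 to 181 in number 1, and neuronal sums are 381 to 388 FPKM in number 2 and 225 to 242 in number 1.

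Some lists of cell type markers were called by number more often than the 35.0% of all genes (16.5% higher and 18.5% lower), and others were not. Of 10 progenitor markers, 7 were called lower and 2 higher in number 2, and their sum was 614 FPKM in Pd1CKO 2 and 917 in Pd1CKO 1, against 629 in control 2 and 954 in control 1. Of 10 neuron markers, 8 were called higher in number 2 and 0 lower, with sums of 2244 FPKM in Pd1CKO 2 and 1166 in Pd1CKO 1, against 2287 in control 2 and 1683 in control 1. All 5 meninges markers above the filter were called lower, and the 6 listed summed to 2.23 FPKM in Pd1CKO 2 and 55.9 in Pd1CKO 1, against 1.62 in control 2 and 33.3 in control 1. Those 5 were each below 1 FPKM in both libraries of number 2. They passed the filter through number 1 only, so the filter itself favoured this direction. Of 6 endothelial markers, 5 were called lower and 0 higher. Erythroid markers went both ways, with 4 of 8 called lower and 2 higher. The 2 higher were the beta-globin genes Hbb-bs by 1.60 (adjusted p = 0.000821) and Hbb-bt by 0.55 (adjusted p = 0.0459). The largest differences of this list were in the lower direction, -3.66 for the globin gene Hba-x (adjusted p = 0.000781) and -3.62 for Hbb-y (adjusted p = 0.000703). Of 8 telencephalon markers, 5 were called lower and 0 higher. Of 6 microglia markers, 1 was called, lower in number 2. None of the 5 choroid plexus markers above the filter was called by number. The 6 listed choroid plexus markers summed to 341 FPKM in Pd1CKO 2 and 272 in Pd1CKO 1, against 18.5 in control 2 and 199 in control 1, so that number 2 had the higher sum in Pd1CKO and the lower sum in control. Most of each sum was Ttr, at 325 FPKM in Pd1CKO 2 and 246 in Pd1CKO 1, against 17.0 in control 2 and 182 in control 1. Aqp1 and Folr1 had the same order by number as Ttr. Clic6 and Kcne2 were lower in number 2 in both genotypes, at 4.29 and 6.41 FPKM in Pd1CKO 2 and 11.8 and 9.51 in Pd1CKO 1. Of 6 diencephalon markers above the filter, 1 was called, Nkx2-1, lower in number 2 with a difference of -2.00 (adjusted p = 0.00580). Nkx2-1 is not restricted to the diencephalon. The 8 listed diencephalon markers summed to 22.3 FPKM in Pd1CKO 2 and 49.6 in Pd1CKO 1, against 26.3 in control 2 and 112 in control 1. Much of each sum was Nkx2-1 alone, at 10.8 FPKM in Pd1CKO 2 and 37.1 in Pd1CKO 1, against 12.8 in control 2 and 67.6 in control 1. The sums therefore do not show how the other listed markers differed by number. Within number 1, 0 of the 6 above the filter were higher in Pd1CKO than in control, where 54.7% of all genes were. Within number 2, 1 of the 6 was higher, where 50.0% of all genes were. Tcf7l2, for example, was at 3.17 FPKM in Pd1CKO 2 and 2.60 in Pd1CKO 1, against 4.56 in control 2 and 11.9 in control 1. Olig3 passed the filter through control 1 only. The part of cell makeup in the kinesin values was not tested.

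The partners of the motors were read from lists of their own. Of 9 partners of mitotic kinesins, 8 were called lower in number 2 and 0 higher, where 18.5% of all genes were called lower and 16.5% higher. Among them, Racgap1, which joins Kif23 in centralspindlin, differed by -0.69 (adjusted p = 0.00395), Tpx2, which loads Kif11 onto the spindle, by -0.67 (adjusted p = 0.00613), and Aurkb, the kinase of the passenger complex, by -1.004 (adjusted p = 0.00186). The kinetochore kinesin Cenpe, whose symbol lies outside the rule, was lower in number 2, with a difference of -0.81 (adjusted p = 0.0182). Prc1, which bundles midzone microtubules for Kif4, did not pass (adjusted p = 0.0767).

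Of 15 partners of transport kinesins above the filter, 7 were called higher in number 2 and 1 lower, against 16.5% and 18.5% of all genes. Kifap3, the accessory subunit of the Kif3 motors, was at 46.1 FPKM in Pd1CKO 2 and 25.4 in Pd1CKO 1, against 42.9 in control 2 and 26.8 in control 1, a difference of 0.75 (adjusted p = 0.00378). Its change was close to the 0.71 of Kif3a and the 0.70 of Kif3b. Klc1, a light chain of conventional kinesin, went the other way from the neuronal heavy chains Kif5a and Kif5c. Klc1 was at 86.9 FPKM in Pd1CKO 2 and 111 in Pd1CKO 1, against 89.2 in control 2 and 128 in control 1, a difference of -0.44 (adjusted p = 0.0256).

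For the opposing motor, dynein with dynactin and its regulators, 4 of 10 genes were called higher in number 2 and 1 lower, or 5 of 10 in either direction, where 35.0% of all genes were called. Dync1i1, the neuronal intermediate chain, had 18.0 FPKM in Pd1CKO 2 and 2.54 in Pd1CKO 1, against 17.8 in control 2 and 2.49 in control 1, a difference of 2.43 (adjusted p = 0.000423). Nde1, a dynein regulator of progenitor division, was lower, with a difference of -0.76 (adjusted p = 0.00334), while its relative Ndel1 did not pass (0.073, adjusted p = 0.559). No gene of the 3 lists passed by genotype in limma, and none had an unadjusted p under 0.05.

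The promoters of the mitotic kinesins mostly held the TTTGAA element shown above. RefSeq promoters (GRCm38.p6, 250 bases before to 50 after the transcript start) were matched for 32 of 42 members, with 36 promoters. TTTGAA was present on either strand in 11 of 12 mitotic promoters (91.7%), in 1 of 8 neuronal, 1 of 8 ciliary, 0 of 5 broad transport and 1 of 2 kinesin-11 promoters, against 17.9% of all 32851 promoters of the same length and 11.6% of those of tested genes. The Kif1a match lay in the promoter of an internal transcript start, 19471 bases from the start of the gene in the files. The 8 neuronal promoters came from 6 genes, since Kif1a and Kif2a had more than 1 start each. Kif21b, Kif5a and Kifc2 had no matched promoter, and the start used for Kif17 lay 11816 bases from that of its gene. Counting only matches that began within 30 bases of the start, a window chosen after the sites were seen, 9 of 12 mitotic promoters held one, against 3.14% of all promoters and 2.07% of those of tested genes. A match describes these letters in the window and is not a binding site.

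CCAAT on either strand was found in 8 of 12 mitotic promoters and 0 of 8 neuronal ones, against 37.4% of all promoters, and in 5 of 8 ciliary ones. Both motifs together were found in 8 of 12 mitotic promoters, against 6.95% of all. In Kif2c and Kif14 the TTTGAA matches lay more than 30 bases from the start, and in both the RefSeq start was inside the gene, 3867 and 1505 bases from the gene start in the files. Kif18a held neither motif. Kifc1 and Kifc5b, near-identical copies on chromosome 17, shared the bases before their matches. The related element TTTAAA was in 2 of 12 mitotic promoters against 13.2% of all, and the E2F-type sequences GCGCCAAA and TTTCGCG in 2 of 12 and 0 of 12, against 0.514% and 0.849%. CCGCCC, the core of the GC box, was in 6 of 12 (50.0%), against 35.7% of all promoters and 63.5% of those of tested genes. TATAAA was in 1 of 12 (8.33%), against 13.6% of all promoters and 6.67% of those of tested genes. For both, the mitotic share thus lay between the 2 backgrounds.

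Over all tested genes, TTTGAA anywhere in the promoter was held by 12.9% of promoters of genes lower in number 2, by 9.85% of those higher and by 11.7% of those not called. Within 30 bases of the start these shares were 4.10%, 1.22% and 1.76%. That window was chosen after the mitotic kinesin sites were seen, and the genes lower in number 2 include mitotic kinesins. A link of the motif to the difference by number was not tested. Kif1c, lower in number 2 without being mitotic, had no TTTGAA match in its promoter, and Kif26b, with a match near the start, was not called.

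**Figure D5:**
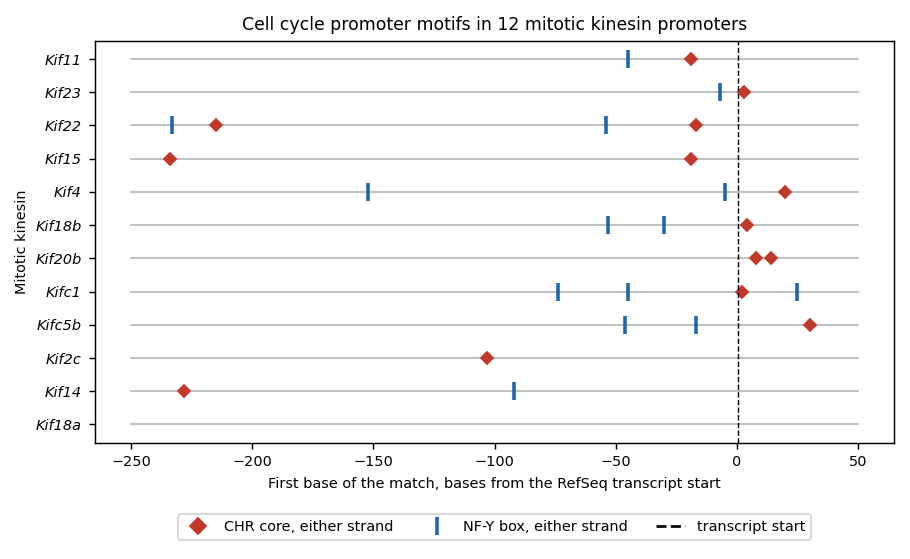
Positions of the TTTGAA core of the cell cycle gene homology region (CHR, diamonds) and of the CCAAT box bound by NF-Y (bars) in the promoters of 12 mitotic kinesins, in bases from the RefSeq transcript start (dashed line). In 9 genes a diamond lies within 30 bases of the start, and Kif18a has neither mark.

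Some kinesin counts are uncertain. Kifc1 and Kifc5b were 96.8% identical over 2312 aligned bases, so that reads may be split or lost between them. Both gave the same direction by number, with -0.63 for Kifc1 and -0.91 for Kifc5b. For 6 members, at least 15% of the exon length was shared with a gene on the opposite strand, and no source used here says whether the counting was stranded. Among these, Kif3c shared 35.3% with 1110002L01Rik, Kif20a shared 29.3% with Cdc23 and Kif4 shared 15.1% with Pdzd11. In the authors' deposited table of ratios, Pd1CKO 1 over control 1 ranged from 0.700 for Kifc2 to 1.69 for Kif24 over the family. Those ratios were given for 21532 genes, 40 of them family members. The authors' list of genes with a ratio above 2 held 1714 genes and no member of the family, and it covers only increases in number 1.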

How the data were processed

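RNA was measured in 4 libraries, 2 Pd1CKO and 2 control, and samples were grouped by the titles in the labels. Oligo(dT) was used to enrich mRNA, per the labels' protocols. Per the submitters' processing notes, reads were handled with FastQC, fastp, HISAT2, TopHat, StringTie and featureCounts on mm10, without versions, roles or order. The deposited tables give no unit. The deposited values were taken to be FPKM computed by the authors, since they are not whole and 97.3% to 97.5% of those below 200 fragments became whole within 0.1 once multiplied by Gencode M21 exon length (99.8% of gene IDs found) and 1 depth per library. Control 2 was the shallowest library with 16192000 implied fragments, followed by Pd1CKO 2 with 18098000, control 1 with 18572000 and Pd1CKO 1 with 18728000. A further deposited table holds the ratio of Pd1CKO to control FPKM for number 1, made by the authors without a pseudocount. The table of number 1 alone repeats the same values and was not used.

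Genes averaging 1 FPKM or more (13927) entered the fits, made in R 4.3.3 with limma 3.58.1 (limma-trend) on log2(FPKM + 1), with all 4 libraries, Benjamini-Hochberg adjustment over all genes tested and a threshold of 0.05. Genotype and library number were fitted separately, and every adjusted p in the text comes from these fits unless another setting is named beside it. The log2(FPKM + 1) scale understates changes of low genes. Folds within a number come with exact 95% Clopper-Pearson intervals on recovered fragments, which cover counting error only. Role sums were compared by an exact permutation test. Near-identical transcripts were searched with BLAST 2.17.0 (at least 90% identity over 200 bases). Motifs were searched on both strands of RefSeq promoters. The fit was also run on simulated counts whose spread was set and not taken from these libraries, and no statement here rests on that run. The rest was done in Python 3.11.15 (pandas 2.3.3, numpy 2.4.6, matplotlib 3.10.9, scipy 1.17.1).

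Values in every library were given for Kif11, Kif23, Kif1a and Kif5c and, in each role group, for the 4 members with the highest mean and the 2 with the smallest genotype p. Other genes named were chosen after their values were seen. The members, lists and motifs were chosen with earlier results of these data known. Alternatives were other pseudocounts (0.1 and 4), no filter, median-ratio scaling, quantile normalization, a replicate block, each library left out and, for role sums, the median of members or the sum without the highest member. Removal of length and GC trends (loess, span 0.5) and limma-voom on fragments (minimum of 10 in 2 libraries) were added after the data were seen.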

Additional observations from a re-analysis of the deposited data

How the results depend on the processing

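No alternative called a kinesin by genotype, and the alternatives gave 0 genes called, except that the replicate block called 5 genes, 3 higher and 2 lower in Pd1CKO, with 1 kinesin at an unadjusted p under 0.05. That kinesin was Kif5b (limma with the block, unadjusted p = 0.0378, adjusted p = 0.959). In the same fit, 621 of all 13927 genes had an unadjusted p under 0.05. The labels do not say that a number pairs samples. Libraries of one number deviated together from their group means, with a correlation of 0.799, but 2 pairs are too few to establish a pairing from the data. By number, the fits gave 2976 genes and 12 kinesins without a filter on low values, all 12 among the 22. Leaving out each library in turn gave 2614 to 6850 genes and 13 to 27 kinesins. Quantile normalization moved the share of higher genes among those called from 47.2% to 54.6%, and without Pd1CKO 2 it was 38.5%.

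Of the 34 members, 31 changed the sign of the genotype difference when some library was left out and 11 under another setting. By number, 3 did so without some library and 4 under another setting, none of them a called kinesin. Without 1 library, the genotype difference ranged from -0.31 to 0.42 for Kif26a, -0.27 to 0.32 for Kif26b, -0.063 to 0.40 for Kif4, -0.19 to 0.47 for Kif23, -0.31 to 0.58 for Kif3a, -0.59 to 0.11 for Kifc2, -0.053 to 0.32 for Kif13b, -0.34 to 0.49 for Kif5c, -0.44 to 0.50 for Kif1a and -0.17 to 0.62 for Kif11. That of Kif5b (0.22 to 0.38), Kif21a (0.085 to 0.14) and Kif24 (0.085 to 0.45) kept its sign. The difference by number ranged from -0.27 to 0.12 for Kif5b, -0.092 to 0.071 for Kif21a and -0.41 to 0.035 for Kif24. Kif26b turned to -0.024 by genotype under quantile normalization and to -0.046 with length and GC trends removed, where Kif1a was at -0.0069. By number, Kif5b was at 0.032 and Kif21a at 0.12 under quantile normalization, and Kif13b at -0.051 and Kif13a at -0.072 with the trends removed. In log2 role values, the median of members turned the genotype difference to -0.014 for neuronal and -0.031 for broad transport kinesins and the number difference to -0.096 for cilium kinesins. Without the highest member, the number difference was -0.19 for broad transport and 0.56 for kinesin-11, and the genotype difference of kinesin-11 was -0.00067, or -0.012 with median-ratio scaling. The causes were not tested. The genotype fit holds the spread between numbers in its error, which limits the differences it can call with 4 libraries.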
